A study of Mus musculus with 33 samples.

Results

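Germ-free mice were compared with antibiotic-treated mice after both had received chronic morphine, in 10 of the 33 nucleus accumbens libraries of the series. The members were chosen by the labels alone: the 5 libraries of germ-free mice given morphine (GF morphine, replicates 1, 2, 3, 5 and 6) and the 5 of antibiotic-treated mice given morphine (Abx morphine, replicates 1 to 5). All were C57BL/6J mice that received morphine sulfate at 20 mg/kg/day over 7 days, so the drug is shared and the comparison sets 1 way of lacking gut bacteria against the other. GF mice were bred at the institution, lived in isolators and had never carried a microbiome. Abx mice were born with one, came from a commercial breeder at 7 to 9 weeks of age in cages of 4 to 5, and had their microbiome depleted by drinking vancomycin (0.5 mg/mL), bacitracin (0.5 mg/mL), neomycin (2 mg/mL) and the antifungal pimaricin (1.2 µg/mL) from 2 weeks before the injections until the end. GF mice were matched to them in age and drank sterilised water without the drugs. Breeding place, housing, the drugs and the origin of the mice therefore all differ between the groups and cannot be told apart from germ-free status. The titles number the libraries as single mice, so each stands for 1 mouse here. The p-values rest on the spread between libraries within groups, estimated in 1 fit of all 33 libraries of the 6 groups. The saline pair of the same design (6 GF saline and 6 Abx saline libraries) was used to see which differences are there without morphine, and levels in water-drinking mice with a normal microbiome (H2O) are given in places as a reference.

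The nucleus accumbens is the part of the ventral striatum in which morphine and other rewards act on medium spiny neurons. Those neurons carry dopamine and opioid receptors and are surrounded by microglia, whose maturation is known to depend on the gut microbiome. Secretory and cytosolic proteins are folded by chaperones of the endoplasmic reticulum (ER) and of the cytosol, whose genes are switched on by the unfolded protein response and by heat-shock factor. Glucocorticoids, the stress hormones that enter the brain from the adrenal gland, switch on a further set of genes such as Fkbp5 through their nuclear receptor.

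The GF morphine libraries held 5.86 to 7.30 M (megareads) of reads assigned to genes and the Abx morphine libraries 11.1 to 13.7 M, without overlap, so depth differed with the groups and the GF values are the less precise. The share of reads given to no gene was 22.1% to 35.4% in GF and 21.2% to 23.6% in Abx libraries, and it was highest in GF replicate 5. The log2 CPM (counts per megaread, scaled to effective library size) of pairs of libraries correlated across genes with r from 0.968 to 0.985 in GF and from 0.986 to 0.992 in Abx mice. All 20 markers of medium spiny neurons were detected and tested. Their summed level was 7982 to 12567 CPM in GF and 9078 to 11892 CPM in Abx libraries, and by edgeR's quasi-likelihood test none of the 20 passed after adjustment. Rasd2 alone had an unadjusted p under 0.05, DESeq2 called none and limma voom called 3, all lower. Markers of striatal tissue were thus present in both groups. Libraries differed more in markers of tissue next to the accumbens. The 12 cortical glutamatergic markers summed to 191 to 243 CPM in GF against 351 to 1316 CPM in Abx libraries. The 16 hypothalamic and pituitary markers summed to 39.7 to 89.2 against 19.7 to 58.3 CPM, and the 12 meningeal markers to 152 to 385 against 133 to 154 CPM. The dot plot of marker lists by library shows these differences. A second fit had the mean levels of the cortical list and of the hypothalamic and pituitary list as covariates (called the marker covariates below), and the meningeal list was not among them. The cortical mean did not overlap between the groups (log2 CPM 0.95 to 1.32 in GF, 3.01 to 5.06 in Abx libraries). That fit therefore cannot fully tell the cortical level from the groups, and a call lost in it need not mean a smaller difference.

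**Figure D1:**
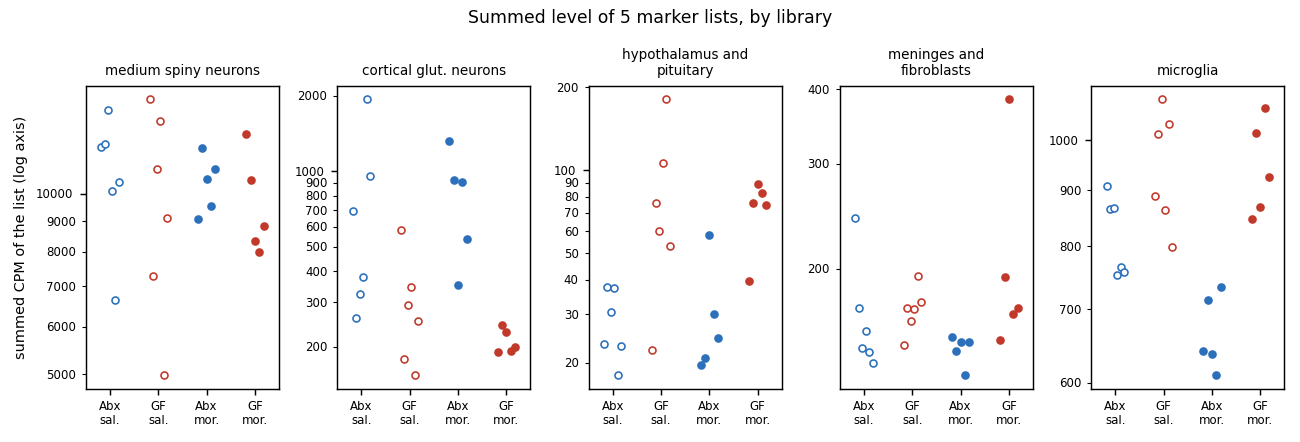
Summed CPM (log axis) of 5 marker lists in each library of the Abx saline, GF saline, Abx morphine and GF morphine groups (open points saline, filled points morphine). Medium spiny neuron markers overlapped between GF morphine (7982 to 12567) and Abx morphine (9078 to 11892), cortical markers were lower in every GF morphine library (191 to 243 against 351 to 1316), and microglial markers were higher (848 to 1070 against 610 to 734).

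Of 14602 genes tested, 4096 differed between GF and Abx morphine mice (28.1%), 2183 of them higher in GF (15%) and 1913 lower (13.1%), by edgeR's quasi-likelihood test with Benjamini-Hochberg adjustment at 0.05. Most differences were small. The median absolute log2 fold change of the called genes was 0.42, and 395 exceeded 2-fold, 187 higher and 208 lower. In 2491 genes (17.1%) no GF library overlapped any Abx library in CPM, 1180 of them higher (8.08%) and 1311 lower (8.98%). With the 2 marker lists as covariates 1944 genes were called, 1024 higher and 920 lower, and of the original calls 37.3% were among them. Without GF replicates 3 and 5, left out together after the data were seen because they stood apart in meningeal markers and in reads given to no gene, 2408 genes were called, 1286 higher and 1122 lower. Lists of genes are described below by how many members passed this test, to be read against these shares, and by the median log2 fold change of their members, to be read against 0.01 over all genes tested.

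Chaperone genes were mostly higher in GF morphine mice. Of 28 ER chaperone and unfolded protein response genes, 18 were higher and 2 lower, with a median of 0.27, and of 26 cytosolic heat-shock chaperone genes 20 were higher and none lower, with a median of 0.52. The second list, called cytosolic here, also holds Hspd1 and Hspe1, whose products are chaperones of mitochondria. Promoters of some of these genes are shown here because a part of the list members holds a known short sequence in them. Such a sequence was found in 8 of the 28 ER genes (23 with a promoter sequence at hand) and in 4 of the 26 cytosolic genes (21). Most members called higher were not among them. Whether these sequences have a part in the differences was not tested. The ER stress element, spelled CCAAT and CCACG with any 9 bases between them, on either strand, is the site known to be used by the unfolded protein response factors ATF6 and XBP1 with NF-Y. It was found in 39 of 32851 RefSeq promoter windows (0.119%; GRCm38.p6, from 250 bases before to 50 after each annotated start), and in 8 of the 23 windows that match the ER list. The genes with it were Calr, Canx, Creld2, Dnajc3, Hsp90b1, Hspa5, Pdia6 and Syvn1, and all 8 were called higher in GF mice. The windows of the 4 of these 8 genes that led by p follow, 5′ to 3′ on the gene's strand, with the element in capitals.
Hspa5 (chr2:34771840-34772139, + strand): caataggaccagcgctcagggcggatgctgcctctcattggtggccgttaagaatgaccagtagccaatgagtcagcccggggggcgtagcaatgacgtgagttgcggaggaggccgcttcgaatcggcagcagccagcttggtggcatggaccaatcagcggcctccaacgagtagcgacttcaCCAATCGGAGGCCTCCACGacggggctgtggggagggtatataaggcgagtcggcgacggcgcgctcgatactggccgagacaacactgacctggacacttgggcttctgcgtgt
Pdia6 (chr12:17266339-17266638, + strand): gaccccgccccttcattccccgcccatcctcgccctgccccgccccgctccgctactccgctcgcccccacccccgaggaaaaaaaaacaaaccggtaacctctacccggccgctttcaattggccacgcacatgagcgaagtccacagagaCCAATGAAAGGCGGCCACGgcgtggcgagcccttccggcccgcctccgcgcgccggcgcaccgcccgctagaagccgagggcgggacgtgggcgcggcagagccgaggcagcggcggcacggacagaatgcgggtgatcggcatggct
Hsp90b1 (chr10:86705395-86705694, - strand): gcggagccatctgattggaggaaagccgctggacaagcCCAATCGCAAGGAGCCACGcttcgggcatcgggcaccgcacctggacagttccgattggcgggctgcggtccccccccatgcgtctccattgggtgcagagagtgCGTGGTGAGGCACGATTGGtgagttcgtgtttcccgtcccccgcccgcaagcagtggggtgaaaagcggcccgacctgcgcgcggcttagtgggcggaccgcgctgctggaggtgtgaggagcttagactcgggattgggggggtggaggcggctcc
Calr (chr8:84846882-84847181, - strand): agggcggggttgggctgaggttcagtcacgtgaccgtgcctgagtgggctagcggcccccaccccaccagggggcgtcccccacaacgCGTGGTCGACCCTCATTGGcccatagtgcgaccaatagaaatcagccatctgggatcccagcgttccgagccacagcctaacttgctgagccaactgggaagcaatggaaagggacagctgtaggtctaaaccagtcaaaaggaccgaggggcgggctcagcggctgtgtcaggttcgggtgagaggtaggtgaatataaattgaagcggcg
The element starts 65 bases before the annotated start in Hspa5, 98 before it in Pdia6 and 162 before it in Calr, where it lies on the other strand. Hsp90b1 holds it 212 and 107 bases before the start, the second copy on the other strand. A match is a description of the letters, and binding was not measured.

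Pdia6, a protein disulfide isomerase of the ER, gave the smallest p of the list. It was at 169, 151, 162, 159 and 160.5 CPM in GF replicates 1, 2, 3, 5 and 6 and at 79.5, 87.7, 81.4, 82.3 and 82.1 CPM in Abx replicates 1 to 5 (log2 fold change 0.95 ± 0.06 SE, adjusted p = 5.83e-12). The lowest GF library stood far above the highest Abx library. Hspa5, which encodes BiP, the main ER chaperone and sensor of unfolded proteins, was at 655, 559.6, 556, 499 and 572 CPM in GF and at 266, 256, 281, 279 and 267 CPM in Abx libraries (1.07 ± 0.11, adjusted p = 1.44e-08). Again the groups did not overlap. Calr, the lectin chaperone calreticulin, was at 461 to 508 CPM in GF and 262 to 301 CPM in Abx libraries (0.80 ± 0.06, adjusted p = 3.36e-10). Hsp90b1, the HSP90 of the ER, was at 502 to 531 and 323 to 346 CPM (0.65 ± 0.06, adjusted p = 2.65e-09), and Pdia4, a further disulfide isomerase, at 62.6 to 77.8 and 26.8 to 37.2 CPM (1.10 ± 0.11, adjusted p = 6.82e-09). These 5 genes encode folding enzymes of the ER lumen. Pdia4 is not among the 8 genes found with the element. The other 4 of those 8 were higher too: Creld2 by 0.68, the lectin chaperone gene Canx by 0.28, Dnajc3 by 0.27 and the ubiquitin ligase gene Syvn1 by 0.20 on the log2 scale. The 2 lower members were not chaperones. Ern1, the stress sensor kinase of the ER membrane, averaged 6.91 ± 1.85 CPM (SD, n = 5) in GF and 10.5 ± 1.92 in Abx mice (fell by 0.61 ± 0.16 on the log2 scale, adjusted p = 0.00463), and 4 of 5 GF libraries were below the Abx range. Trib3, a pseudokinase gene induced by the stress factors ATF4 and CHOP, averaged 1.34 ± 0.626 and 3.46 ± 0.427 CPM (fell by 1.35 ± 0.32, adjusted p = 0.00233) without overlap.

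Chordc1, a co-chaperone of HSP90, led the cytosolic list. Its promoter window is shown because it holds the densest run of the heat-shock element among these genes, GAA, TTC and GAA with any 2 bases between each, on either strand, which heat-shock factor is known to bind.
Chordc1 (chr9:18292017-18292316, + strand): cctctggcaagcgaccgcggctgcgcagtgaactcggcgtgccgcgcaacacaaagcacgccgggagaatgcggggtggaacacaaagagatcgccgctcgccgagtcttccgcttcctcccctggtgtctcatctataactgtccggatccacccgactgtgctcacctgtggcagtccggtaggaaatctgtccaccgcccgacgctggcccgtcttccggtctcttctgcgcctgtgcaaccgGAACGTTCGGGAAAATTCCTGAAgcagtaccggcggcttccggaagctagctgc
The capitals mark 3 overlapping matches, the first of which starts 4 bases before the annotated start. The element was in 198 of the 32851 windows (0.603%) and in 5 of the 29 windows that match the cytosolic list, those of Chordc1, Hspd1, Hspe1 and Hsph1 (with 2 windows), all called higher. Hspd1 and Hspe1 are neighbours read in opposite directions, and their windows overlap. Chordc1 was at 60.0, 52.2, 66.8, 58.8 and 49.7 CPM in GF and at 17.7, 22.0, 16.5, 19.0 and 23.5 CPM in Abx libraries (1.54 ± 0.15, adjusted p = 6.14e-09). The lowest GF library was far above the highest Abx library. Hspa8, the constitutive HSP70 of the cytosol, was at 1561 to 1725 CPM in GF and 1020.1 to 1157 CPM in Abx libraries (0.63 ± 0.07, adjusted p = 5.64e-08). Hsph1, the HSP110 that recharges HSP70, was at 384 to 555 and 248 to 313 CPM (0.77 ± 0.09, adjusted p = 5.34e-07). Hsf1, the heat-shock factor itself, was at 44.2 to 55.1 and 28.3 to 35.1 CPM (0.67 ± 0.09, adjusted p = 1.5e-06). Serpinh1, the collagen chaperone HSP47, belongs to neither list. It was among the genes with the smallest p, at 21.6 to 36.6 CPM in GF and 6.89 to 11.1 CPM in Abx libraries (1.52 ± 0.13, adjusted p = 1.33e-09).

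With the marker covariates 14 ER genes were higher and 1 lower (median 0.24) and 16 cytosolic genes were higher and none lower (0.48). Without GF replicates 3 and 5 the counts were 14 higher and 1 lower, and 17 higher and none lower. The same lists were higher in GF mice in the saline pair, which shares no library with the morphine pair. There 18 ER genes were higher and 1 lower (median 0.35) and 22 cytosolic genes higher and 1 lower (0.43), against 14.4% higher and 12.9% lower over all genes tested in the saline pair. The mean log2 CPM of the ER list over libraries was 6.22 ± 0.04 (SD) in GF morphine and 6.29 ± 0.10 in GF saline mice, against 5.91 ± 0.02 in Abx morphine and 5.98 ± 0.05 in Abx saline mice. The H2O mice were at 6.00 ± 0.04 with morphine and 6.04 ± 0.07 with saline. The GF groups were the ones set apart in these means, with no test made for that order. Of the genes named above, Pdia6, Calr and Serpinh1 had a larger difference in the morphine than in the saline pair, by 0.31 ± 0.08 (adjusted p = 0.0454), 0.34 ± 0.09 (adjusted p = 0.0325) and 1.03 ± 0.18 (adjusted p = 0.00265). For Hspa5 that difference was 0.08 ± 0.14 (adjusted p = 0.799). These differences between the pairs were not followed under the alternatives.

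**Figure D2:**
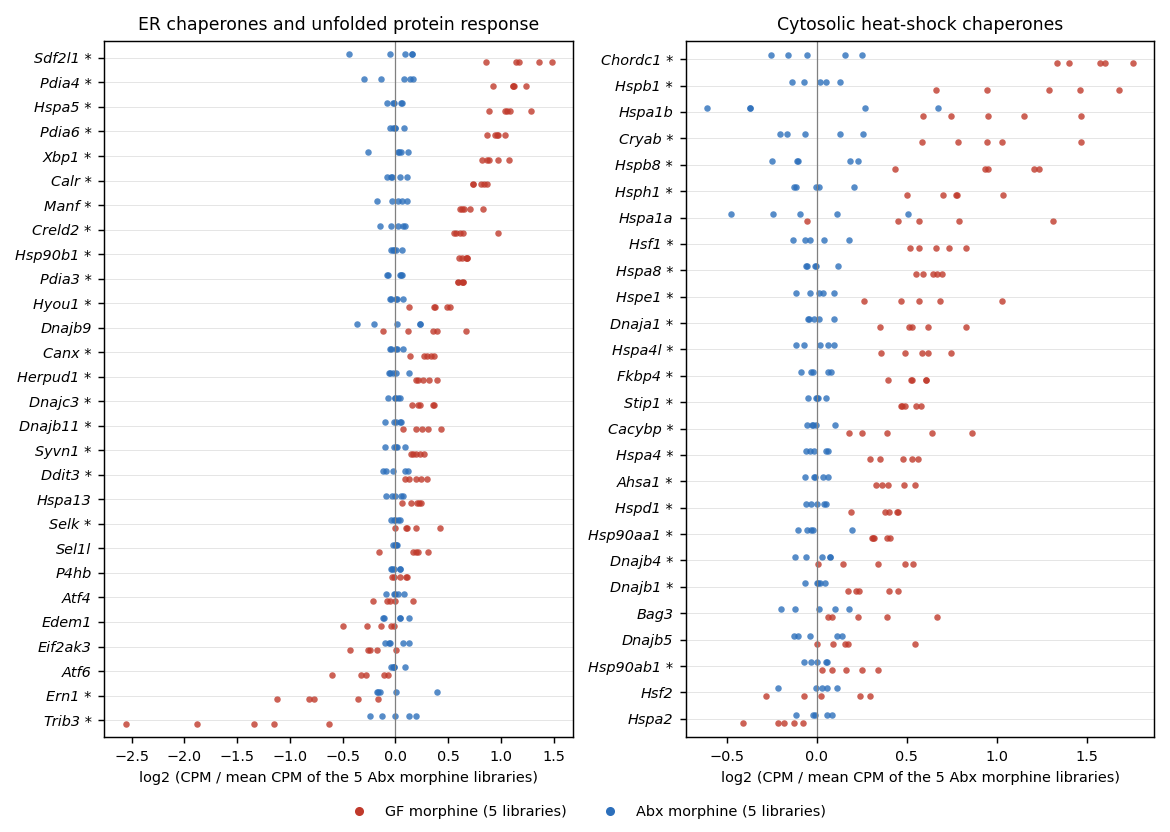
CPM of each of 28 ER chaperone and unfolded protein response genes (left) and 26 cytosolic heat-shock chaperone genes (right) in the 5 GF (red) and 5 Abx (blue) morphine libraries, as log2 of the ratio to the mean of the Abx libraries. Each point is 1 library and an asterisk marks adjusted p under 0.05, which 18 ER genes met higher and 2 lower, and 20 cytosolic genes met higher. The cytosolic list includes the mitochondrial chaperone genes Hspd1 and Hspe1.

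Microglial genes were higher in GF than in Abx morphine mice in nearly the whole list. Of 20 markers 19 were higher and none lower, against 15% higher over all genes, and the median was 0.55. In 14 of the 20 no library of the groups overlapped, all with GF higher, against 8.08% of all genes in that direction. Bulk RNA cannot tell fewer cells of a type from less RNA per cell. Olfml3, a secreted protein gene typical of microglia, was at 22.4, 26.6, 22.8, 24.7 and 27.002 CPM in GF and at 7.12, 11.7, 7.12, 6.67 and 12.002 CPM in Abx libraries (1.46 ± 0.14, adjusted p = 6.11e-09). Fcrls, an Fc receptor-like gene of resident microglia, was at 34.5, 32.0, 29.6, 32.6 and 29.7 CPM in GF and at 16.1, 19.4, 10.4, 14.2 and 15.9 CPM in Abx libraries (1.06 ± 0.12, adjusted p = 2.62e-07). Both genes were separated in every library. Tmem119, a surface marker of homeostatic microglia, was at 31.8 to 40.7 and 19.6 to 27.8 CPM (0.69 ± 0.10, adjusted p = 1.24e-05), and Selplg, the ligand of P-selectin, at 43.1 to 64.9 and 25.9 to 35.4 CPM (0.78 ± 0.11, adjusted p = 5.31e-06). Complement C1q genes, Cx3cr1, Aif1, Csf1r and the purinergic receptor genes P2ry12 and P2ry13 were among the called members. Trem2, a lipid-sensing receptor of microglia, was the member that did not pass (0.33 ± 0.13, adjusted p = 0.056).

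Abx morphine mice held the lowest microglial level of the 6 groups. The mean log2 CPM of the list was 4.51 ± 0.17 (SD) in them, 4.89 ± 0.14 in Abx saline, 5.14 ± 0.15 in GF morphine, 5.11 ± 0.16 in GF saline, 5.00 ± 0.08 in H2O morphine and 5.20 ± 0.05 in H2O saline mice, with no test made for that order. In the saline pair 7 of the 20 markers were higher in GF mice, none was lower and the median was 0.19. The test of the morphine pair against the saline pair was passed by 3 markers, all higher (1.25% of all genes were called in that direction), among them Olfml3 (larger by 1.10 ± 0.18, adjusted p = 0.00205) and Fcrls (0.87 ± 0.16, adjusted p = 0.0052). Between 17 and 20 markers were called when any 1 library of the morphine groups was left out, and 16 without GF replicates 3 and 5. Under the marker covariates 9 were called, all higher, and the median was 0.46.

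Interferon-induced and antigen-presentation genes were higher in GF morphine mice in 11 of 22 members, none was lower, and the median was 0.53, but GF replicate 5 carried much of it. Isg15, a ubiquitin-like protein induced by interferon, was at 1.81, 2.05, 1.70, 4.99 and 1.71 CPM in GF and at 0.451, 0.773, 0.871, 1.24 and 0.934 CPM in Abx libraries (1.49 ± 0.32, adjusted p = 0.00101). The highest GF value is that of replicate 5, and the other 4 were still above the Abx range. Ifit3, an interferon-induced antiviral gene, was at 10.2 to 12.9 CPM in 4 GF libraries, 27.9 CPM in replicate 5 and 5.43 to 7.99 CPM in Abx libraries (1.07 ± 0.22, adjusted p = 0.000709). Ifitm3, a membrane protein that blocks viral entry, was at 5.14 to 11.7 and 4.24 to 6.96 CPM with overlap (0.75 ± 0.18, adjusted p = 0.00274). Without GF replicate 5 the list held 6 higher members and a median of 0.23, and without replicates 3 and 5 it held 4 and 0.10. In the fit with marker covariates 3 were higher. In the saline pair none was higher, 1 was lower and the median was -0.03.

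**Figure D3:**
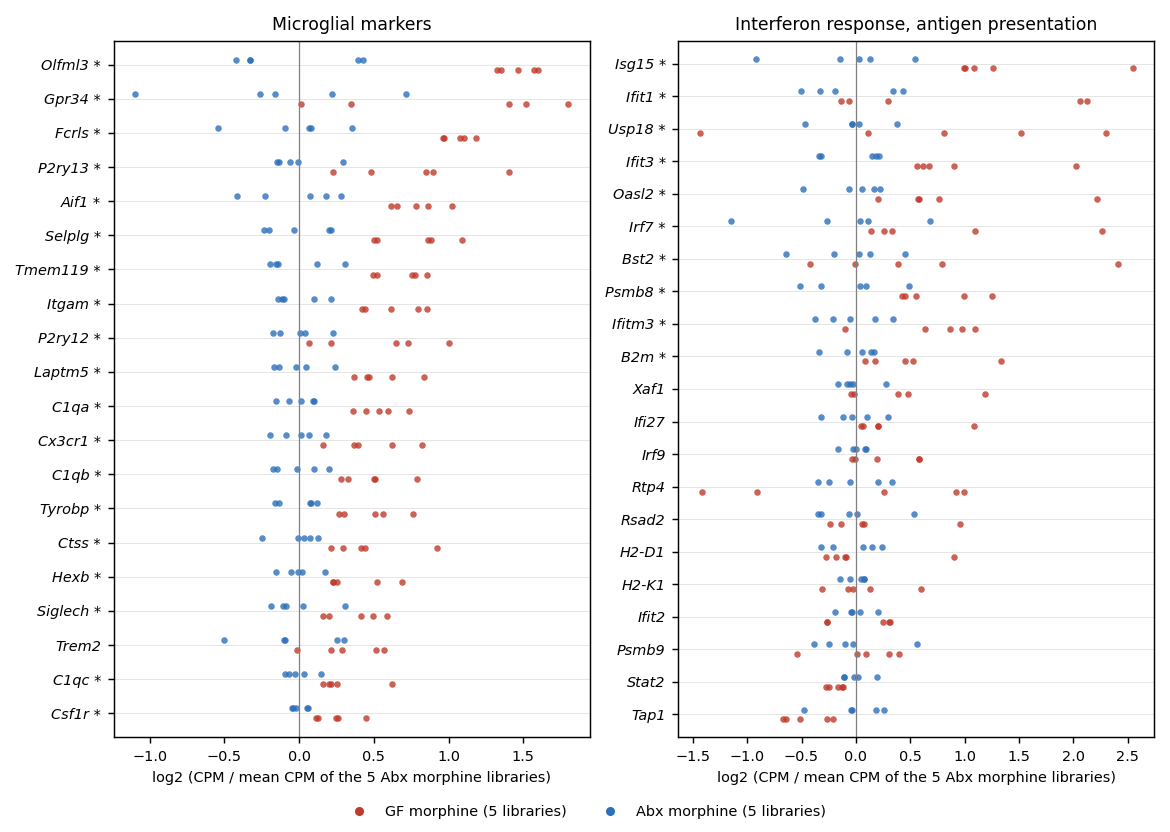
CPM of 20 microglial markers (left) and 21 of the 22 interferon-response and antigen-presentation genes (right) in the 5 GF (red) and 5 Abx (blue) morphine libraries, as log2 of the ratio to the Abx mean, with an asterisk at adjusted p under 0.05. Microglial markers were higher in 19 of 20 cases, and the single red points far to the right among the interferon genes, such as Isg15 at 4.99 CPM and Ifit3 at 27.9 CPM, belong to GF replicate 5.

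Glucocorticoid-responsive genes were lower in GF than in Abx morphine mice. Of 25 tested members 12 were lower, against 13.1% of all genes, 1 was higher, and the median was -0.33. Fkbp5, a co-chaperone that dampens the glucocorticoid receptor and is induced by it, was at 83.0, 70.7, 78.6, 59.5 and 76.4 CPM in GF and at 139.9, 108, 163, 142 and 115 CPM in Abx libraries (fell by 0.86 ± 0.12, adjusted p = 8.27e-06). Plin4, a lipid-droplet coat protein gene, was at 11.8, 12.5, 17.0, 16.5 and 29.7 CPM in GF and at 51.2, 47.5, 59.6, 66.6 and 55.6 CPM in Abx libraries (fell by 1.69 ± 0.37, adjusted p = 0.000995). Both were below the Abx range in all 5 GF libraries. Cdkn1a, the cell-cycle inhibitor p21, was at 21.4 to 32.6 CPM in GF and 33.8 to 63.2 CPM in Abx libraries (fell by 0.82 ± 0.14, adjusted p = 7.03e-05). Per1, a clock gene that glucocorticoids also induce, was at 118 to 206 and 194 to 261 CPM, with GF replicate 1 inside the Abx range (fell by 0.56 ± 0.13, adjusted p = 0.00198). The other 8 lower members were Hif3a, Gpd1, Sult1a1, Arrdc2, Mfsd2a, Klf9, Rasd1 and Dusp1. The direction was not shared by 2 classic members. Tsc22d3, the leucine zipper gene GILZ, was higher in GF mice at 82.4 to 146 against 71.3 to 94.1 CPM (0.59 ± 0.15, adjusted p = 0.0041), a call lost without GF replicates 3 and 5. Sgk1, a serum- and glucocorticoid-regulated kinase gene, was at 90.2 to 197 and 105 to 219.9 CPM (0.16 ± 0.19, adjusted p = 0.551). Its promoter window was the single one of 30 for the list with a full glucocorticoid response element, AGAACA and TGTTCT with any 3 bases between them, which 3 of all 32851 windows held.

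Across the 6 groups, it was the Abx morphine mice that stood apart in Fkbp5. The gene averaged 134 ± 22.2 CPM (SD, n = 5) in them, 81.3 ± 13.99 (n = 6) in Abx saline, 73.6 ± 9.06 in GF morphine, 79.999 ± 14.8 in GF saline, 62.0 ± 6.90 in H2O morphine and 64.7 ± 3.18 in H2O saline mice. Cdkn1a had the same order at its top, with 46.7 ± 11.7 CPM in Abx morphine against group means of 18.3 to 29.4 CPM elsewhere. Plin4 averaged 56.1 ± 7.44 CPM in Abx morphine, 17.5 ± 7.21 in GF morphine, 21.7 ± 11.2 in GF saline and 17.2 ± 13.5 in Abx saline mice, and 2.97 ± 1.21 and 4.14 ± 1.10 CPM in H2O saline and H2O morphine mice. For this gene the means of both germ-free groups and both antibiotic groups lay above those of the water groups. Single libraries overlapped, with Abx saline replicate 1 at 5.00 CPM and H2O morphine replicate 6 at 5.13 CPM. In the saline pair no member of the list was lower in GF mice, 6 were higher and the median was 0.17. The difference between the pairs passed the test for 8 members, all towards lower in the morphine pair, among them Cdkn1a (fell by 1.05 ± 0.19, adjusted p = 0.00345), Fkbp5 (fell by 0.84 ± 0.17, adjusted p = 0.00859) and Plin4 (fell by 1.98 ± 0.50, adjusted p = 0.0325). Of the genes just named, only Cdkn1a was followed under the alternatives in that test. With the marker covariates 6 members were lower and 1 higher in the morphine pair, and without GF replicates 3 and 5 there were 9 lower and none higher.

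**Figure D4:**
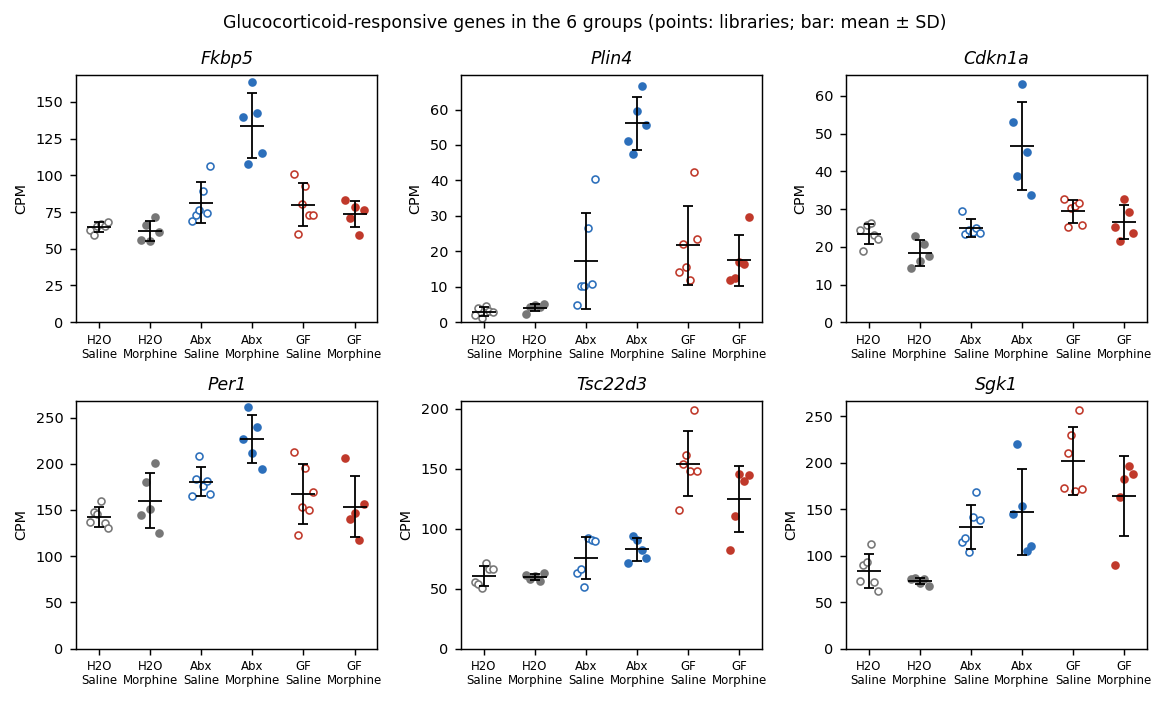
CPM of 6 glucocorticoid-responsive genes in every library of the 6 groups (points; open saline, filled morphine) with mean ± SD. For Fkbp5, Plin4 and Cdkn1a the Abx morphine libraries lie highest (means of 134, 56.1 and 46.7 CPM), whereas Tsc22d3 is highest in GF saline mice (154 CPM) and Sgk1 overlaps between GF and Abx morphine mice.

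Receptors and releasing factors of the same axis were mixed. Of 8 genes 3 were higher (Crh, Crhr1 and Fkbp4) and 2 lower (Nr3c2, the mineralocorticoid receptor, and Hsd11b1, which regenerates active corticosteroid). Crh, corticotropin-releasing hormone, was at 12.5, 12.2, 24.1, 25.8 and 27.7 CPM in GF and at 3.16, 2.78, 9.58, 6.13 and 3.02 CPM in Abx libraries (2.04 ± 0.39, adjusted p = 0.000276). The groups did not overlap. Crh is also on the hypothalamic and pituitary list, whose mean is a covariate of the second fit, so that fit gives no separate value for it. In that fit 2 of the 8 genes were higher and none lower, as also without GF replicates 3 and 5.

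Markers of neighbouring tissue had large fold changes. Slc17a7, the vesicular glutamate transporter of cortical neurons, was at 4.18, 3.52, 4.40, 3.12 and 4.44 CPM in GF and at 848, 573, 133, 562 and 266 CPM in Abx libraries (fell by 6.92 ± 1.52, adjusted p = 0.00111). Neurod2, a transcription factor of the same neurons, had no read in 2 of 5 GF libraries and reached 0.44 CPM in the others, against 4.67 to 35.3 CPM in Abx libraries. The Abx values also varied widely among themselves. In all, 8 of 12 cortical glutamatergic markers were lower with a median of -3.26. Without GF replicates 3 and 5, 2 of them were called, with a median of -3.32. Gh, the pituitary growth hormone gene, was at 2.23, 33.5, 16.6, 4.99 and 2.22 CPM in GF and at 1.08, 0, 0.475, 0.0776 and 0 CPM in Abx libraries (5.25 ± 1.09, adjusted p = 0.000656). Prl, the prolactin gene, was at 0.171 to 3.08 CPM in GF libraries and had reads in 1 Abx library only, at 0.0902 CPM. Of the 9 hypothalamic and pituitary markers tested, 4 were higher (Crh, Gh, Prl and Pomc) and the median was 0.83. Of 12 meningeal and fibroblast markers 6 were higher with a median of 1.06. Col3a1, a fibrillar collagen gene, was at 79.3 CPM in GF replicate 3, at 4.87 to 9.69 CPM in the other 4 GF libraries and at 1.26 to 1.93 CPM in Abx libraries (3.75 ± 0.57, adjusted p = 1.91e-05). Without replicate 3 its log2 fold change was 2.11 and the median of the list was 0.52, and without replicates 3 and 5 the list held 2 higher members. The hemoglobin genes on the blood list were listed at 0 in all 10 libraries.

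Other glia differed less than microglia. Of 20 oligodendrocyte and myelin genes 9 were higher in GF morphine mice and none lower, with a median of 0.35. Without GF replicate 5, 5 of them were higher and the median was 0.24, without replicates 3 and 5 there were 4 (0.22), and with the marker covariates 3 (0.21). Ugt8a, the enzyme that makes galactosylceramide for myelin, was at 47.6, 74.6, 67.1, 81.2 and 61.0 CPM in GF and at 26.0, 27.7, 23.5, 24.9 and 35.4 CPM in Abx libraries (1.27 ± 0.14, adjusted p = 1.16e-07). Ermn, a cytoskeletal gene of mature oligodendrocytes, was at 60.2 to 104 and 38.6 to 58.3 CPM (0.81 ± 0.16, adjusted p = 0.000357). Neither gene overlapped between the groups, and both were higher in GF mice in the saline pair too (0.998 and 0.84). In the precursor list 4 of 12 were higher, Olig2 (0.90), Gpr17 (0.58), C1ql1 and Olig1, and Vcan, a proteoglycan of the matrix, was lower (fell by 0.48). Under the marker covariates, and without GF replicates 3 and 5, 2 of the list were higher and 1 lower, and with the covariates its median was -0.06. For Vcan the morphine pair differed from the saline pair (difference of -0.60, adjusted p = 0.0205). Of 20 astrocyte genes 7 were higher and 2 lower with a median of 0.14, but 2 were higher and 3 lower with the marker covariates (0.03), and 2 and 2 without GF replicates 3 and 5. Fabp7, a fatty-acid binding protein of astrocytes and progenitors, was at 16.9 to 26.8 CPM in GF and 9.70 to 13.1 CPM in Abx libraries (0.98 ± 0.13, adjusted p = 1.38e-06), and the difference was larger than in the saline pair by 0.92 (adjusted p = 0.00345). Sox9, a transcription factor of astrocytes, was lower in GF mice (fell by 0.52, adjusted p = 0.00122), as was the receptor gene Fgfr3.

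Vessel genes went both ways. Of 22 endothelial genes 6 were higher and 2 lower with a median of 0.11. Ly6a, a surface antigen of endothelium, was at 29.4 to 44.6 CPM in GF and 16.7 to 25.1 CPM in Abx libraries (0.84 ± 0.11, adjusted p = 1.39e-06), with a difference from the saline pair of 0.55 (adjusted p = 0.04). Clec14a, an endothelial lectin gene, was at 1.56 to 3.28 and 3.56 to 5.68 CPM (fell by 1.01 ± 0.23, adjusted p = 0.00159). Of 13 mural cell genes Des was higher and Pdgfrb, the receptor that marks pericytes, lower (fell by 0.34 ± 0.08, adjusted p = 0.00315), and with the marker covariates none of the 13 was called.

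Sterol and clock genes were lower in part. Of 27 genes of cholesterol synthesis and uptake 9 were lower and 1, Ebp, higher, with a median of -0.08. The lower ones included Lss, lanosterol synthase, at 12.8 to 24.3 CPM in GF and 30.2 to 35.2 CPM in Abx libraries (fell by 0.67 ± 0.10, adjusted p = 1.21e-05) and the sterol sensor gene Insig1 (fell by 0.53). Both were without overlap. In the fit with marker covariates 2 of the 27 were lower and none higher, and the median was 0.05. Of 19 clock genes 8 were lower and none higher, with a median of -0.22. Ciart, a repressor of the clock, was at 18.2 to 25.2 and 33.5 to 40.1 CPM (fell by 0.67 ± 0.10, adjusted p = 7.9e-06), and Cry2 (fell by 0.48) and Nr1d1 (fell by 0.32) were also without overlap. With the marker covariates 3 clock genes were lower, and without GF replicates 3 and 5 there were 4 lower and 1 higher. Of 22 lysosomal genes 6 were higher and 1 lower, against 2 and 1 with the marker covariates and 3 and 2 without GF replicates 3 and 5. Hexa, the alpha subunit of hexosaminidase, was at 77.3, 73.1, 73.0, 77.7 and 73.3 CPM in GF and at 40.0, 49.1, 39.0, 44.4 and 49.4 CPM in Abx libraries (0.75 ± 0.06, adjusted p = 1.26e-09), and Tpp1, a lysosomal peptidase, was higher by 0.28. For Hexa the morphine pair exceeded the saline pair by 0.53 (adjusted p = 0.00205).

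Genes of energy metabolism and of ribosomes differed little. Of 73 genes of oxidative phosphorylation 9 were higher and 2 lower (median 0.07). That direction did not hold: 2 were higher and 5 lower without GF replicates 3 and 5 (median -0.03), 3 higher and 7 lower with offsets for GC content and length (-0.02), and 5 higher and 7 lower with limma voom. Under the marker covariates 4 were higher and none lower. The complex III subunit Uqcrb was at 110.0 CPM in GF replicate 5, 77.3 to 79.6 CPM in the other GF libraries and 61.3 to 72.1 CPM in Abx libraries (0.39 ± 0.09, adjusted p = 0.0013). Of 60 ribosomal protein genes 16 were higher and none lower (median 0.10), and 8 were higher without GF replicate 5. In the fit with marker covariates none was called and the median was -0.01, and without GF replicates 3 and 5 there were 5 higher and 1 lower. Rpsa was among those called, higher by 0.32 and by 0.35 more than in the saline pair (adjusted p = 0.0467). Many ribosomal protein genes have near-identical processed copies, so their counts are uncertain. In the saline pair 24 of the 73 and 9 of the 60 were lower and none was higher.

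Dopamine and opioid genes of medium spiny neurons passed the test in few cases. Drd1a, the D1 dopamine receptor, was at 169 to 259.6 CPM in GF and 217 to 281 CPM in Abx libraries (-0.24 ± 0.22, adjusted p = 0.434), and Drd2, the D2 receptor, at 80.7 to 149 and 93.1 to 137 CPM (-0.08 ± 0.25, adjusted p = 0.828). Neither passed the test, which does not show that the levels are equal. Ppp1r1b, the signalling protein DARPP-32, had -0.34 ± 0.19 (adjusted p = 0.164), and the opioid peptide genes Penk and Pdyn had 0.17 ± 0.16 and 0.26 ± 0.21. Of 16 dopamine genes 2 were higher, among them Th, the enzyme that limits dopamine synthesis, and with the marker covariates 1 was higher and 1 lower. Of 8 opioid genes 1 was lower and 1 higher, and neither was called with the marker covariates. Oprk1, the kappa opioid receptor, was at 37.9, 37.4, 29.6, 23.4 and 25.5 CPM in GF and at 50.8, 50.5, 52.6, 41.6 and 49.9 CPM in Abx libraries (fell by 0.67 ± 0.20, adjusted p = 0.0148). All GF libraries were below the Abx range, but the call was lost with the marker covariates (-0.63, edgeR adjusted p = 0.0854), where the value changed little. It was also lost without GF replicates 3 and 5 (-0.54, edgeR adjusted p = 0.118). Pomc was higher with an adjusted p of 0.0475, and that call was lost when any of 7 single libraries was left out. Oprm1, the mu receptor at which morphine acts, was at 2.97 to 10.4 and 4.78 to 6.25 CPM (0.45 ± 0.27, adjusted p = 0.226).

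GABA genes were higher in 7 of 21 cases and lower in none (median 0.15), but in 1 case with the marker covariates (0.11) and in 3 without GF replicates 3 and 5 (0.18). Gabra2, a GABA-A receptor subunit, was at 60.8, 60.6, 59.1, 32.0 and 52.6 CPM in GF and at 17.5, 25.9, 23.1, 25.4 and 28.2 CPM in Abx libraries (1.14 ± 0.15, adjusted p = 1.57e-06). The C57BL/6J strain is known for an intronic deletion that lowers this gene. Of 10 genes known to differ between C57BL/6 substrains, 3 were higher (Gabra2, Nnt and Apoo) and 2 lower, among them Ide. Nnt, a mitochondrial transhydrogenase truncated in C57BL/6J, was at 21.02 to 23.7 CPM in GF and 14.01 to 17.5 CPM in Abx libraries (0.50 ± 0.07, adjusted p = 7.05e-06). Ide, the insulin-degrading enzyme, was at 46.1 to 49.8 and 71.7 to 97.5 CPM (fell by 0.87 ± 0.14, adjusted p = 4.79e-05) and had a like value in the saline pair (fell by 0.82). The call of Apoo was lost with the marker covariates, and without GF replicates 3 and 5 its value fell from 2.07 to 0.70 (adjusted p = 0.419). Gad1, which makes GABA, was higher by 0.25 and Gabrb2, a receptor subunit, by 0.54, and both calls were lost with the marker covariates. Among interneuron markers 7 of 14 were higher and 2 lower, among them Lhx6 (1.06) and the vesicular acetylcholine transporter gene Slc18a3 (0.81). With the marker covariates 2 were higher and both of these calls were lost (0.22 and 0.26), and without GF replicates 3 and 5 there were 3 higher. Of 18 immediate early genes 1 was higher and 4 lower (median -0.35), and with the marker covariates 3 were higher and none lower (median 0.39). Fosb, a factor that builds up with repeated drug exposure, was at 60.2, 29.9, 46.5, 32.2 and 43.2 CPM in GF and at 26.6, 28.4, 28.0, 26.6 and 20.8 CPM in Abx libraries (0.70 ± 0.19, adjusted p = 0.00665). Jun fell by 0.57 ± 0.14 (adjusted p = 0.0036), and Fos had -0.39 ± 0.41 (adjusted p = 0.5). Nr4a2 was lower by the test (fell by 2.91 ± 0.99, adjusted p = 0.0265), but its value was 0.96 with the marker covariates (adjusted p = 0.0707), and the call was lost without any 1 of GF replicates 1 and 2 and Abx replicate 2.

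Some of the clearest single genes belonged to none of the lists. Rbm3, a cold-inducible RNA-binding protein, was at 51.7, 43.9, 50.3, 58.2 and 48.5 CPM in GF and at 124, 108, 124, 113 and 98.2 CPM in Abx libraries (fell by 1.17 ± 0.09, adjusted p = 3.36e-10). The groups were separated by a wide gap. It was lower in the saline pair too (fell by 0.83). AI854517 (fell by 1.29), the zinc finger gene Zfp46 (fell by 1.30) and Xpc, which recognises DNA damage (fell by 1.18), had adjusted p of 3.62e-10, 6.14e-09 and 5.99e-09. Tra2a, a splicing regulator, was higher by 1.15 (adjusted p = 1.5e-09) and Tufm, the elongation factor of mitochondrial translation, by 0.71 (adjusted p = 8.22e-10). The imprinted genes Peg10 and Ndn were higher by 1.58 and 1.55, at 486 to 689.7 against 148 to 263 CPM and at 355 to 539 against 137 to 164 CPM. Nts, neurotensin, is on the list of septal markers. It was higher by 1.29, a call lost with the marker covariates.

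Many differences between GF and Abx morphine mice were also there in the saline pair. Of the 4096 genes called in the morphine pair, 86.7% had the same sign in the saline pair, against 70.1% of all genes. The pairs shared 1727 genes called in the same direction, which were 42.2% of the morphine calls and 43.3% of the 3990 saline calls. The log2 fold changes of the pairs correlated across the 14602 genes with Pearson r = 0.673 and Spearman rho = 0.596, a description, since genes are not replicates and both pairs share the GF colony. Depth differed in the saline pair too. GF saline replicate 1 held 15.3 M reads, above all Abx saline libraries (9.36 to 11.97 M). The other GF saline libraries held 4.87 to 8.13 M, below all of them. The test of the morphine pair against the saline pair called 313 genes (2.14%), 182 higher (1.25%) and 131 lower (0.897%), and 2661 genes had an unadjusted p under 0.05. Of the 313, 229 were called in the morphine and 136 in the saline pair, and 223 had opposite signs in the pairs. That count was the least stable of the results: it was 42 when only the 4 groups were fitted, 87 with all libraries thinned to the shallowest, 91 without Abx morphine replicate 1 and 805 without GF saline replicate 5. Of the 313, 13.1% were called again with only the 4 groups fitted, and 26.8% after thinning. Log2 fold changes followed gene length and GC content differently in the pairs, with a Spearman rho of -0.37 of the difference with length and 0.29 with GC.

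Wnt10b, a Wnt ligand, had the largest drop among the genes named for the difference between the pairs. It was at 0.418, 1.03, 0.142, 0.468 and 1.54 CPM in GF morphine and at 6.67, 4.41, 6.73, 6.13 and 4.31 CPM in Abx morphine libraries (fell by 2.996 ± 0.30, adjusted p = 1.91e-08). The other 4 groups averaged 1.07 to 1.30 CPM, so the Abx morphine libraries were the high ones. The difference between the pairs was -2.94 ± 0.43 (adjusted p = 0.00149). Adamts20, a metalloprotease gene (-1.25), Cdkn1a (-1.05), Shprh, a ubiquitin ligase gene (-0.68), Kdsr, a reductase of sphingolipid synthesis (-0.55), and Trip12, a ubiquitin ligase gene (-0.53), were the other lower ones named by the rule. On the higher side, Cd248, a stromal and pericyte surface gene, differed by 1.54 ± 0.24 (adjusted p = 0.00149). It averaged 3.29 ± 0.603 CPM in GF and 2.20 ± 0.460 CPM in Abx morphine mice, and 2.01 ± 0.501 and 3.95 ± 0.592 CPM in GF and Abx saline mice. Etv4, an ETS factor (1.15), Olfml3 (1.10), Pycrl, an enzyme of proline synthesis (0.72), Hexa (0.53) and Tufm (0.52) followed. Of these 12 genes, 10 kept their call under every alternative that gave an adjusted p. The exceptions were Trip12, lost with offsets for GC content and length, and Kdsr, lost with those offsets and the replicate number as a block. DESeq2 gave Wnt10b no adjusted p. Other genes named for a pair difference, such as Fkbp5, Plin4, Fcrls, Pdia6 and Serpinh1, were not followed under the alternatives in that test.

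**Figure D5:**
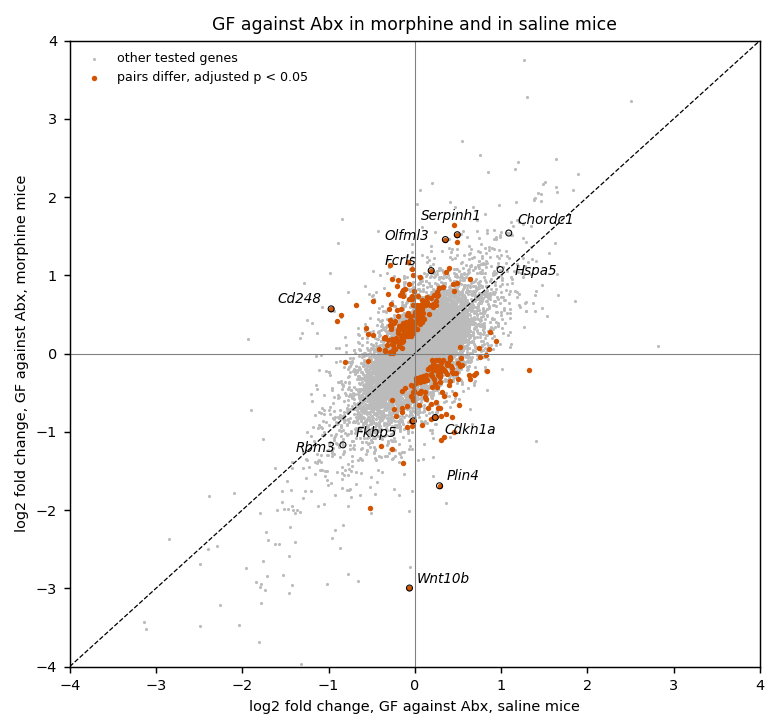
Log2 fold change of GF against Abx in saline mice (x axis) and in morphine mice (y axis) for each tested gene, with genes whose pairs differ at adjusted p under 0.05 in orange, and the line of equal values dashed; 14 genes lie outside the axes. The values of the pairs correlated across genes (r = 0.673), and 70.1% of genes had the same sign in both. Hspa5 and Chordc1 lie near the dashed line, and Wnt10b, Plin4, Cdkn1a and Fkbp5 lie below it.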

How the data were processed

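RNA-seq libraries of nucleus accumbens were read from 2 deposited tables that hold the same reads. Per the submitters' processing notes the tools were FastQC, STAR 2.4.0 and edgeR. Genome build, annotation, strand and counting program: not given in the sources used here. Analysed were raw read counts per gene as the authors deposited them. The authors' second table, a deposited signal of counts divided by library factors for 10871 genes, was used only to check that it holds the same reads. Of 27 gene names deposited as dates, 19 were restored and 8 left out. The 5 rows that name no gene, with reads given to none, were kept out of library sizes, and their share was 21.2% to 35.4% in the 10 libraries. No column lacked a sample.

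All 33 libraries of the 6 groups were fitted together with edgeR 4.0.16 (quasi-likelihood, TMM factors, filterByExpr with a minimum count of 10, R 4.3.3), two-sided, with Benjamini-Hochberg adjustment over 14602 genes and a threshold of 0.05. The fit had 27 residual degrees of freedom. Standard errors were derived from each gene's F statistic. CPM were computed on effective library sizes. Depth was 5.86 to 7.30 M reads in GF and 11.1 to 13.7 M in Abx libraries. No 2 replicates agreed within sampling noise. Counts were simulated for 14602 genes with these depths. In them 100 genes were changed 1.5-fold and 100 were changed 2-fold in GF morphine libraries, none among the least expressed. All other genes had equal means in the 6 groups. Of the changed genes, 74% at 1.5-fold and 87% at 2-fold were called in the morphine comparison. In the test of the difference between the pairs 52% and 76% were called. Far more genes were called in the data themselves, so recovery there can differ.

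Alternatives used DESeq2 1.42.0, limma 3.58.1 (voom with quality weights), other scalings and filters, fewer groups, a replicate block, offsets for GC content and length (GENCODE M21), marker covariates, thinning, and each library left out. The genes named are the 15 higher and 15 lower with the largest fold change and the 10 higher and 10 lower with the smallest p among called genes whose mean reached 5 CPM in either group, the 6 and 6 with the smallest p for the difference, up to 4 called members of each list, and fixed striatal, stress and pituitary genes. That choice passed over unnamed gene models, pseudogenes, and ribosomal or mitochondrial genes. From it, those a list or a separation of the groups brought out are described. Ern1, Trib3, Trem2, Canx, Creld2, Dnajc3, Syvn1, Hspd1 and Hspe1 lie outside it and were chosen after their values were seen. The comparison and the gene lists were chosen with earlier results of these data known. A few further genes are not reported here. Promoter windows are from RefSeq (GRCm38.p6).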

Additional observations from a re-analysis of the deposited data

Results flagged for a closer look

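Single libraries lay far from the rest of their group in 18 of 206 groups of 5 (103 genes named, in GF and in Abx morphine mice). Chance alone marks about 1 group in 20, here 10.3. GF replicate 5 was the library in 6 of the 18. It held 27.9 CPM of Ifit3 (other GF morphine libraries 10.2 to 12.9), 4.99 CPM of Isg15 (1.70 to 2.05) and 110.0 CPM of Uqcrb (77.3 to 79.6). It was low in Lss at 12.8 CPM (21.7 to 24.3), Gabra2 at 32.0 CPM (52.6 to 60.8) and Shprh at 31.1 CPM (47.2 to 51.8). The same library had the highest share of reads given to no gene, and the part of that share in these values was not tested. Col3a1 was at 79.3 CPM in GF replicate 3 against 4.87 to 9.69. That library also had the highest summed meningeal markers of the group, a list that holds Col3a1 itself. GF replicate 1 was high in Pdyn (492 CPM against 275 to 319) and Creld2 (30.5 against 22.7 to 24.1). GF replicate 6 was high in Plin4 (29.7 CPM against 11.8 to 17.0) and low in Hspd1 (184 against 211 to 222).

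Among Abx morphine libraries, replicate 3 was high in Ern1 (13.9 CPM against 9.35 to 10.6), and replicate 1 was the one library with Prl (0.0902 CPM against 0). Replicate 2 was high in Ciart (40.1 CPM against 33.5 to 34.2) and Rpsa (469 against 428 to 437). Oprk1 was low in replicate 4 at 41.6 CPM (49.9 to 52.6). In replicate 5 Fosb was low at 20.8 CPM (26.6 to 28.4) and Cd248 high at 3.02 CPM (1.93 to 2.07).

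The effect of germ-free against antibiotic treatment differed between morphine and saline mice in 313 genes by edgeR's quasi-likelihood test of the difference itself with Benjamini-Hochberg adjustment. Of the genes named, those more positive in the morphine pair, on the log2 scale, were Cd248 (1.54), Etv4 (1.15), Olfml3 (1.10), Serpinh1 (1.03), Ifitm3 (0.93), Fabp7 (0.92), Fcrls (0.87), Pycrl (0.72), Ly6a (0.55), Hexa (0.53), Tufm (0.52), Rpsa (0.35), Calr (0.34) and Pdia6 (0.31). They include 2 microglial markers, 1 interferon-response gene and 3 genes of protein folding. More negative were Wnt10b (-2.94), Plin4 (-1.98), Adamts20 (-1.25), Cdkn1a (-1.05), Fkbp5 (-0.84), Xpc (-0.79), Shprh (-0.68), Vcan (-0.60), Lss (-0.58), Kdsr (-0.55) and Trip12 (-0.53), of which Plin4, Cdkn1a and Fkbp5 are glucocorticoid-responsive. Only 12 of these genes were followed under the alternatives in this test.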

How the results depend on the processing

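The count of 4096 genes called between GF and Abx morphine mice fell to 1944 with the marker covariates and to 2408 without GF replicates 3 and 5. It ranged from 3293 to 4296 with 1 library of the morphine groups, or GF saline replicate 1, left out. With all libraries thinned to the shallowest it was 3096, and with only the 2 compared groups fitted it was 3699. Of the original calls, 71.7% and 80.7% were among those. The 313 genes of the difference between the pairs became 636 with DESeq2, 624 with voom, 175 without a filter, 42 with only the 4 groups fitted, 87 after thinning (37 higher, 50 lower) and 138 without GF replicates 3 and 5. With 1 library left out they ranged from 91 to 805. The count moved by over 1.5 times without GF morphine replicate 5 (155), Abx morphine replicates 1 (91), 3 (112) and 4 (180), GF saline replicates 3 (170), 5 (805) and 6 (151), and Abx saline replicates 1 (111) and 2 (166). Offsets for GC content and length gave 145 higher and 65 lower, a more one-sided split than 182 and 131. Replicate numbers did not pair the libraries: deviations of the 4 same-numbered pairs of GF and Abx morphine libraries correlated with r from -0.26 to 0.05. A replicate block gave 3604 and 208 genes, and with the offsets 3879 and 163.

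Of 94 genes named with values and called in the morphine pair, 77 kept their call in every alternative other than the covariates, 62 in all of them, and 91 without any 1 library of these groups. Signs changed with the covariates for Drd2 (0.17), Fos (0.46), Nr4a2 (0.96) and Sv2b (0.17) and without GF replicates 3 and 5 for Sgk1 (-0.0052) and Drd2 (0.090). With 1 library left out Drd2 ranged from -0.23 to 0.0037, the latter without GF replicate 5. The cause was not tested. Calls lost with the covariates alone included Trib3, Ifit3, Isg15, Per1, Nr1d1 and Rpsa. Ern1, Ifitm3 and Syvn1 lost theirs without GF replicates 3 and 5, Dnajc3 with the covariates and after thinning, and Uqcrb with the offsets. A call lost with the covariates did not always go with a smaller value. Cd248 had 0.57 in both fits, whereas Sv2b went from -1.07 to 0.17. Trem2 was called in 5 alternatives, and Ppp1r1b in 2. Log2 fold changes of genes near 0 in 1 group moved with single libraries: Gh was 4.39 without GF replicate 2 and 6.36 without Abx replicate 1, Prl 6.82 without Abx replicate 1 and Neurod2 -7.32 without GF replicate 2. Depth in GF libraries limits genes of few CPM most.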

Other observations

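Genes of the synapse that the report does not name went both ways between GF and Abx morphine mice. Counts of list members in this section are to be read against 15% higher and 13.1% lower over all genes tested. Those of the glutamate list were near these shares. Of 28 glutamate receptor and scaffold genes 4 were higher and 4 lower, with a median log2 fold change of 0.02, but 4 were higher and none lower with the marker covariates. Gria4, an AMPA receptor subunit, was at 65.3, 86.9, 81.6, 92.1 and 88.7 CPM in GF and at 64.0, 59.5, 61.1, 60.2 and 64.9 CPM in Abx libraries (0.42 ± 0.09 SE, edgeR adjusted p = 0.000695). Grik5, a kainate receptor subunit, was lower (fell by 0.44), and its call was lost with the marker covariates (-0.25, edgeR adjusted p = 0.0882). Neither overlapped between the groups, although GF replicate 1 was close to the highest Abx library in Gria4, and both had the same direction in the saline pair (0.54 and -0.36). Of 25 potassium channel genes 3 were higher and 6 lower (median -0.18). With the marker covariates 1 was higher and none lower (median 0.12), and without GF replicates 3 and 5 there were 2 higher and none lower. Kcnn2, a calcium-activated channel, was at 18.2 to 23.8 CPM in GF and 12.6 to 15.8 CPM in Abx libraries (0.57 ± 0.13, edgeR adjusted p = 0.00179), and its mean in both groups of GF mice (21.2 and 22.3 CPM) stood above the 4 other group means of 12.3 to 14.3 CPM. Kcnj4, an inward rectifier, fell by 0.63 (edgeR adjusted p = 0.00612), a call lost with the marker covariates and without GF replicates 3 and 5. Of 24 genes of synaptic vesicle release 1 was higher and 4 lower (median -0.07), and with the marker covariates 2 were higher and none lower (median 0.11). Sv2b, a vesicle glycoprotein that cortical neurons also express, was at 121 to 167 CPM in GF and 182 to 412 CPM in Abx libraries (fell by 1.07 ± 0.29, edgeR adjusted p = 0.00755), and its value was 0.17 with the covariates.

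Of 24 genes of histone acetylation 3 were higher and 5 lower (median 0.04), against 3 and 2 with the marker covariates and 2 and 1 without GF replicates 3 and 5. Brd2, a reader of acetylated histones, was at 233, 209, 213, 187 and 233 CPM in GF and at 288, 269, 283, 298 and 262 CPM in Abx libraries (fell by 0.38 ± 0.05, edgeR adjusted p = 7.05e-06). Every GF library was below every Abx library, and the saline pair had the same direction (fell by 0.27). Hdac8, a histone deacetylase, was higher by 0.54. Of 7 neurotrophin genes 2 were higher and 1 lower, with Ntrk3, the receptor of neurotrophin-3, higher by 0.39, a call lost with the marker covariates (0.22, edgeR adjusted p = 0.202), under which 1 of the 7 was called. Of 5 tested genes of the aryl hydrocarbon response, a pathway that senses compounds of diet and bacteria, Nqo1 was lower (fell by 0.47) and none was higher. Among marker lists, septal genes had 1 higher and 1 lower of 8, ependymal and choroid plexus genes 1 lower of 8 tested, and the 1 blood gene tested did not pass.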
